A study of Mus musculus with 2 samples.

Results

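The p53 pathway and the apoptosis machinery were followed through 38 genes in the lens of newborn mice with and without the forkhead factor Foxp1. The list holds p53 itself (Trp53) and its ubiquitin ligases, the kinases that signal DNA damage to it, genes that p53 is known to switch on, the Bcl2 family, caspases with Apaf1, and the inhibitors of apoptosis proteins. Genes were chosen by name, and every probe whose RefSeq transcript belonged to a listed gene was taken. All 38 had at least 1 probe, with 46 probes in all, out of 20655 genes that could be named on the arrays. Of these, 35 genes were measured on both arrays, out of 14254 genes measured in all. The study holds 2 samples of total RNA from lens at postnatal day 0, each read on 1 Agilent 1-colour array. The control is labelled wild-type and a litter mate, and the knockout is labelled as lens-specific for Foxp1, both on a C57BL/6 mixed background. The treatment text of both samples names Foxp1-flox/flox and Pax6-L-Cre, so which of these alleles the control carried is not settled by the labels, and the genotype label was used. By its name the Cre is driven by Pax6 sequence. The labels do not say in which other cells it acts, or whether lenses of several animals were pooled.

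The p53 protein is a transcription factor that is held at a low level by the ubiquitin ligase Mdm2 and its partner Mdm4. After DNA damage, Atm and the checkpoint kinases release that brake, and p53 then switches on genes for cell cycle arrest, repair and cell death, Mdm2 among them. Cell death through mitochondria is set by the Bcl2 family: BH3-only proteins sense stress, Bax and Bak1 open the outer membrane, and Bcl2 and its relatives hold them back, after which Apaf1 and caspase 9 start the caspase cascade. The lens uses parts of this machinery in another way as well, since fibre cells lose their nuclei and organelles without dying.

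Values are processed signals, the brightness of a spot after background subtraction, and differences are knockout minus control on the log2 scale after each array was scaled to its 75th percentile. A gene counted as measured when its probe was well above background on both arrays. With 1 array per genotype there is no replicate check and no test, so 2-fold in either direction (1 in log2 units) served as a rule of size. The error given with a difference is the SD of a spot difference at that brightness, between 0.08 and 0.29, taken from 281 probes printed at least 5 times. Where repeat spots or probes were averaged, that SD was reduced to the error of their mean. It covers spot noise only, not animals, dissections or labelling. Precision is limited by the number of arrays. Where a signal is given as a pair, the control comes first and the knockout second. The share of gene spots well above background was 67.5% in the control and 56.9% in the knockout. Foxp1 read lower on the knockout array with each of its 3 probes, at -1.84, -1.82 and -1.33. Added spike-in RNAs with control signals of 280 and above differed by -0.21 to 0.01, whereas the 3 dimmest, with control signals of 81.0 or less, differed by -1.07 to -2.93. Low readings that start below a signal of about 81.0 share that range. Lens fibre markers were present (9 of 9 with a probe, median -0.01), as were lens epithelium markers (7 of 7, median -0.10).

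The listed genes as a whole lay close to equal in the 2 lenses, and the members that stood out were few. Chek2, a DNA damage kinase, was 10.8-fold lower on the knockout array (-3.43 in log2 units, and -2.11 after normexp background correction). Phlda3, a p53 target that restrains Akt, was 2.68-fold higher. Bik, a BH3-only gene, was 2.09-fold lower at signals near background, a direction that turned under quantile normalization and loess. At least 2-fold higher was 1 of 35 measured members, against 1.02% of all measured genes, and at least 2-fold lower were 2, against 5.86% of all. In bulk RNA, fewer cells of a type and less RNA per cell cannot be told apart. The median difference of the members was 0.07, and that of all measured genes was 0.01. With 25 members above 0 and 10 below, the share above 0 can be set beside 50.9% of all measured genes. Members at or above the median signal of all genes numbered 23, of which 20 lay above 0, where 67.8% of such genes did. Of these brighter members 1, Phlda3, was at least 2-fold higher (0.842% of such genes) and 0 were at least 2-fold lower (0.393%). Of the 12 dimmer members 5 lay above 0, where 34% of such genes did, and 2, Chek2 and Bik, were at least 2-fold lower, where 11.3% were. Differences within 0.2 of 0 made up 14 of the 35. At a lower limit of 1.5-fold there were 3 higher members, Phlda3, Pmaip1 and Ccng1, and 2 lower, Chek2 and Bik, against 4.01% and 12.8% of all measured genes.

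**Figure D1:**
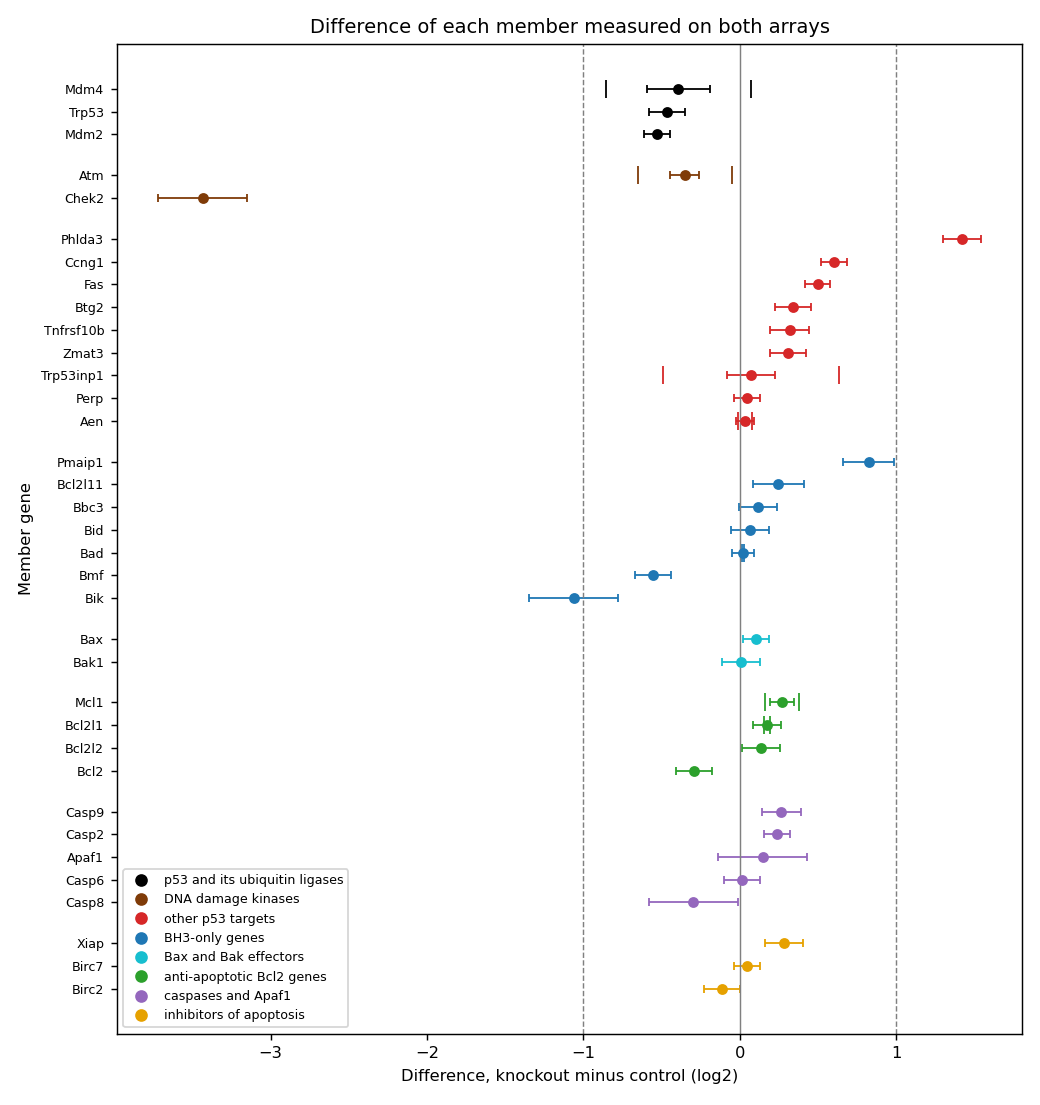
Difference between knockout and control (log2, horizontal axis) for the 35 members measured on both arrays, grouped by role. Each point averages the measured probes of its gene, and bars are the SD of spot noise, reduced where spots or probes were averaged. Ticks are single probes where a gene had 2, and dashed lines mark 2-fold. Chek2 sits far to the left at -3.43 and Phlda3 to the right at 1.42, while 32 members lie between the dashed lines.

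Among the DNA damage kinases Chek2 gave the widest difference of the whole list. Chek2, the checkpoint kinase activated by Atm at DNA breaks, read 333 in the control and 30.5 in the knockout. The log2 difference was -3.43 ± 0.29 (spot SD), and only 3 of the 14254 measured genes lay lower. Genes in the same decile of signal had a median difference of -0.16, and 5.19% of them were at least 2-fold lower. Deciles were set by the mean over both arrays, so the low knockout reading of Chek2 itself lowered its decile, which was number 3 from the dimmest. In the brighter deciles 4 and 5, 2.24% and 1.33% of genes were at least 2-fold lower. The control reading lies between those of the spike-ins at 280 and 566, which differed by -0.07 and -0.21. The knockout reading lies in the dim range, below that of the spike-in that read 81.0 and 38.3 and differed by -1.07. Chek2 was read by 1 spot of 1 probe, so no second probe bears on the reading. Its neighbour in the annotation, Hscb, an iron-sulphur cluster chaperone gene, differed by -0.06. Atm, the kinase upstream, was read by 2 probes that differed from each other. The brighter Atm probe read 99.5 and 95.2, a difference of -0.05. The other Atm probe was printed 10 times, with control signals from 51.5 to 77.7 (median 59.2) and knockout signals from 32.3 to 45.1 (median 38.8). All 10 spots were lower on the knockout array and the signals of the arrays did not overlap, with a mean difference of -0.65 and an SD of 0.21 over spots. That probe is as dim as the spike-ins that also read lower. Chek1, the kinase of stalled replication forks, read 27.3 and 9.37 and was well above background on neither array.

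The gene for p53 and Mdm2 read somewhat lower in the knockout lens, Mdm4 had no settled direction, and 0 of the 3 reached 2-fold. Trp53 was printed on 2 spots of 1 probe, which read 148 and 152 in the control and no more than 107.6 in the knockout (median 107.3). The spots of the arrays did not overlap, and the difference was -0.47 ± 0.12 (error of the mean of 2 spots). In the signal decile of Trp53 the median difference was -0.05. Its control signal lies between those of the spike-ins at 81.0 and 280, which differed by -1.07 and -0.07. No spike-in reads between these, so a technical share in the lower Trp53 reading was not tested. Mdm2, the main ubiquitin ligase for p53 and itself a p53 target, read 3185 and 2186, a difference of -0.53 ± 0.08. At that brightness the median gene differed by 0.09. Mdm4, which binds p53 and blocks its activity, was dim. Its probes read 55.8 and 39.8 in the control, and 57.9 and 21.8 in the knockout, which gave differences of 0.07 and -0.85. The Mdm4 probes therefore disagreed in sign, and the mean of -0.39 rests on the dimmer probe.

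The other p53 targets were the group with the highest median, 0.32, with 9 of 9 measured members above 0 on average over their probes, 1 past 2-fold upward and 0 past it downward. Over all measured genes 50.9% lay above 0, and 67.8% of those at or above the median signal. Relative to the median of all genes, 7 of the 9 lay above 0 under quantile normalization and loess. Phlda3 read 704 and 1865, a difference of 1.42 ± 0.12 (spot SD), and ranked as number 60 from the top of all measured genes. Ccng1, cyclin G, a p53 target that acts through a protein phosphatase on Mdm2, read 2986 and 4479, a difference of 0.60 ± 0.08. Fas, a death receptor, was printed on 2 spots, 626 and 662 in the control, 843 and 960.4 in the knockout. The Fas signals of the arrays did not overlap, and the difference was 0.50 ± 0.08 (error of the mean of 2 spots). Trp53inp1, which promotes p53 activity in stress, gave probes of opposite sign. The brighter Trp53inp1 probe read 272 and 419, a difference of 0.63, and the dimmer read 44.3 and 31.2, a difference of -0.49, so that their mean was 0.07.

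Smaller differences followed in the rest of the p53 targets. Btg2, an antiproliferative gene, read 400 and 502, a difference of 0.34. Tnfrsf10b, the mouse receptor for the death ligand TRAIL, read 732 and 904, a difference of 0.32. Zmat3, an RNA-binding zinc finger gene, read 280 and 343, a difference of 0.31. Each of these exceeded the spot SD of 0.12 at their brightness. Perp, a membrane protein of desmosomes, read 4677 and 4786, a difference of 0.05, within the spot SD of 0.08. Aen, a nuclease of apoptotic cells, was read by 2 probes at 14999 and 13819 in the control and 14752 and 14427 in the knockout, with differences of -0.01 and 0.08. Plk2, a polo-like kinase, read 13.8 and 18.0 and was above background on the knockout array only. No fold was taken from its reading.

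**Figure D2:**
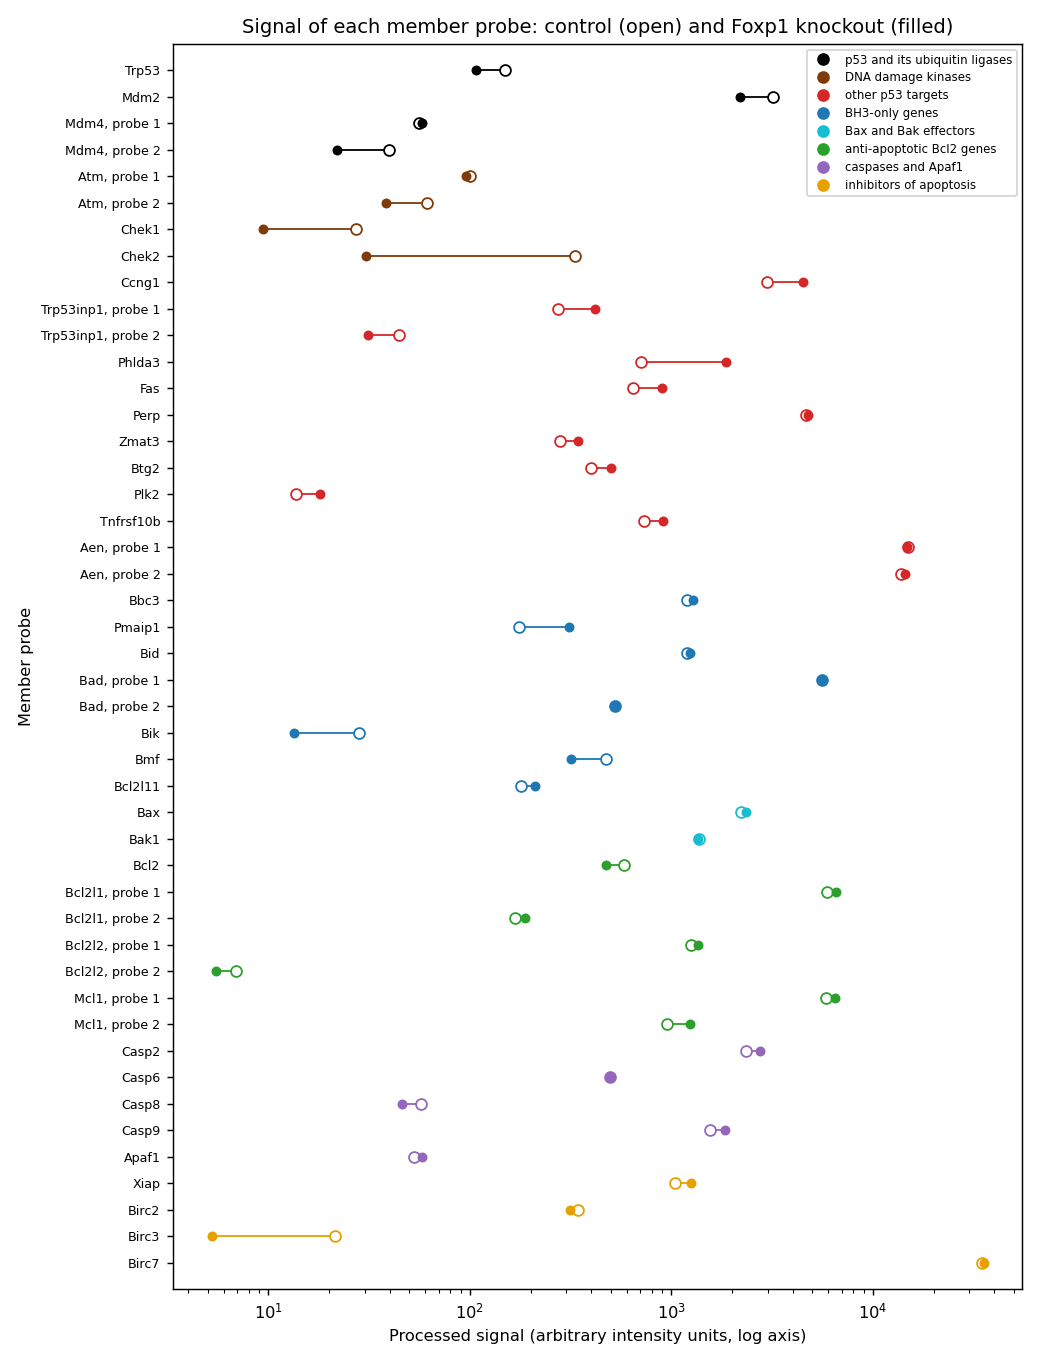
Processed signal of each of the 46 member probes on the control array (open circles) and the knockout array (filled circles), on a log axis, coloured by role. The long line of Chek2 runs from 333 down to 30.5 and that of Phlda3 from 704 up to 1865, while the circles of most bright probes lie on or next to each other.

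Upstream sequence is shown because genes tied to p53 lay on both sides of 0, with Ccng1 and Phlda3 above and Mdm2 and Trp53 below. The RefSeq promoter table (GRCm38.p6) held 32 of the 38 members with 45 start sites, each with 250 bases before and 50 after the start. The p53 half-site consensus, a palindromic motif of 10 letters that reads the same on both strands, was searched for without mismatches. It was found in 8 of 45 member windows (17.8%), which belong to 7 genes, and in 8.36% of all 32851 windows. Windows of Aen held the same 10 letters at 10 and -121 from their starts, and whether this is a single site counted again was not tested. The 7 genes were Ccng1, Mdm2, Bax, Trp53, Bmf, Aen and Birc2. Their differences ran from -0.56 for Bmf to 0.60 for Ccng1, and no match was found in the window of Phlda3. A match is a description of letters and not a binding site. The 250 bases before the start are given for 4 genes with a match and for Phlda3, 5′ to 3′ on the strand of the gene, with the half-site match in capitals. They lie at chr11:40755287-40755536 (minus strand) for Ccng1, chr10:117710759-117711008 (minus) for Mdm2, chr7:45466899-45467148 (minus) for Bax, chr11:69580109-69580358 (plus) for Trp53 and chr1:135765835-135766084 (plus) for Phlda3.
Ccng1: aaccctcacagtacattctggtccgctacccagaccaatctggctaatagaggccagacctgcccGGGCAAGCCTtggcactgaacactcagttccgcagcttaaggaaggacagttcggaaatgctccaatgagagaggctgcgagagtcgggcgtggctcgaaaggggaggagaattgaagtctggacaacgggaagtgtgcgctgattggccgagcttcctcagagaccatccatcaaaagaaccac
Mdm2: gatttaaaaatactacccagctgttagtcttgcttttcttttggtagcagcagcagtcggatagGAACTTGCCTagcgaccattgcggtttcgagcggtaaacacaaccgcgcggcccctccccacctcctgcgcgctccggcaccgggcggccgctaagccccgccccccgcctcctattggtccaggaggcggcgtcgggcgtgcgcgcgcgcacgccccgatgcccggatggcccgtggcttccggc
Bax: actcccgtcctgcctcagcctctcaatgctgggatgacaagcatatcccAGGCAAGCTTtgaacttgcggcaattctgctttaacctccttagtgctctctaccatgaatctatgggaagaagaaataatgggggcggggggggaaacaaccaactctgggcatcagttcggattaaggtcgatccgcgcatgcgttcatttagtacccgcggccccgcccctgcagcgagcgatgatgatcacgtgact
Trp53: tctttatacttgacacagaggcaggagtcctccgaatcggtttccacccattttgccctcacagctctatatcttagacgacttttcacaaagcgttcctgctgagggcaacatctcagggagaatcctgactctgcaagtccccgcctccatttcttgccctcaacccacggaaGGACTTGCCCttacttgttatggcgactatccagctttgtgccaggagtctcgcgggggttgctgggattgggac
Phlda3: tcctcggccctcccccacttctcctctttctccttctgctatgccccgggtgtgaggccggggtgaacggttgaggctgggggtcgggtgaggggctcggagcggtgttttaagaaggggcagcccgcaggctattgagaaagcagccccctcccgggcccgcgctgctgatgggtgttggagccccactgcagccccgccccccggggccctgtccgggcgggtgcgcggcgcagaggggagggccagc
In Ccng1 and Mdm2 the match starts at nearly the same distance from the gene start, at -185 and -186, and the pair read 0.60 and -0.53. In Bax it starts at -201 and in Trp53 at -75.

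Of the 13 Bcl2 family members, all measured, 0 were at least 2-fold higher and 1 was at least 2-fold lower, the median was 0.10, and 10 lay above 0 and 3 below. Over all measured genes 50.9% lay above 0 and 5.86% were at least 2-fold lower. Relative to the median of all genes, 5 of the 13 lay above 0 under quantile normalization and under loess. The BH3-only genes spread widest. Pmaip1, which encodes Noxa, read 176 and 309, a difference of 0.82 ± 0.16 (spot SD) or 1.77-fold. In its decile of signal the median difference was 0.01. Bbc3, which encodes Puma and is the other BH3-only gene best known as a p53 target, read 1195 and 1282, a difference of 0.12 within the spot SD of 0.12. Bmf, a BH3-only protein held at the cytoskeleton, read 474 and 319, a difference of -0.56 ± 0.12. Bik read 28.2 and 13.4, a difference of -1.06 ± 0.29, in a decile of signal where 30.2% of genes were at least 2-fold lower. Bik therefore stands close to the background of its brightness. Bcl2l11, which encodes Bim, read 179 and 210.3, a difference of 0.25 ± 0.16. Bid, which links death receptors to mitochondria, read 1197 and 1239, a difference of 0.06. The probes of Bad, a BH3-only protein controlled by survival kinases, read 5616 and 522 in the control, then 5602 and 526 in the knockout, with differences of 0.01 and 0.03.

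The pore-forming genes were nearly equal in the 2 lenses, and 0 of the 4 anti-apoptotic genes passed 2-fold. Bax read 2209 and 2349, a difference of 0.10 ± 0.08. Bak1 read 1364 and 1357, a difference of 0.01 ± 0.12. Of the anti-apoptotic genes, Bcl2 read 584 and 472, a difference of -0.29 ± 0.12, and was the only member of the 4 below 0. Mcl1, a short-lived inhibitor, was higher with both probes, which read 5837 and 955 in the control, then 6456 and 1229 in the knockout, with differences of 0.16 and 0.38. Bcl2l1, which encodes Bcl-xL, read 5916 and 167 in the control, then 6532 and 188 in the knockout, with differences of 0.16 and 0.19. Bcl2l2, which encodes Bcl-w, read 1250 and 1360 with the probe that was above background, a difference of 0.14 ± 0.12. Its second probe, at 6.93 and 5.50, was above background on neither array. In the annotation Bcl2l11, Bad, Bak1, Bcl2l1, Casp9 and Apaf1 overlap another protein-coding gene, and without probe sequences their readings are uncertain as separate measurements.

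No caspase gene passed 2-fold (0 of 4), and neither did Apaf1. Casp9, the initiator that Apaf1 activates, read 1557 and 1853, a difference of 0.27 ± 0.12. Casp2, an initiator activated in p53 responses, read 2356 and 2752, a difference of 0.24 ± 0.08. Casp6, an effector that cleaves lamins, read 497 on both arrays, a difference of 0.01 ± 0.12. Casp8, the initiator at death receptors, was dim at 57.4 and 46.3, a difference of -0.30 ± 0.29. Apaf1 read 52.9 and 57.9, a difference of 0.15 ± 0.29, while genes of its signal decile had a median of -0.36. Differences of Casp8 and Apaf1 were about as large as or smaller than the spot SD.

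Among the inhibitors of apoptosis Birc7, which encodes livin, was the brightest reading at 34764 and 35517, a difference of 0.04 ± 0.08. Xiap, which binds and blocks caspases directly, read 1040 and 1253, a difference of 0.28 ± 0.12. Birc2, which encodes the ubiquitin ligase cIAP1, read 344 and 315, a difference of -0.11 ± 0.12. Its relative Birc3 read 21.5 and 5.24 and was above background on the control array only. Its control signal lies in the dim range described above, and no fold was taken from it.

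**Figure D3:**
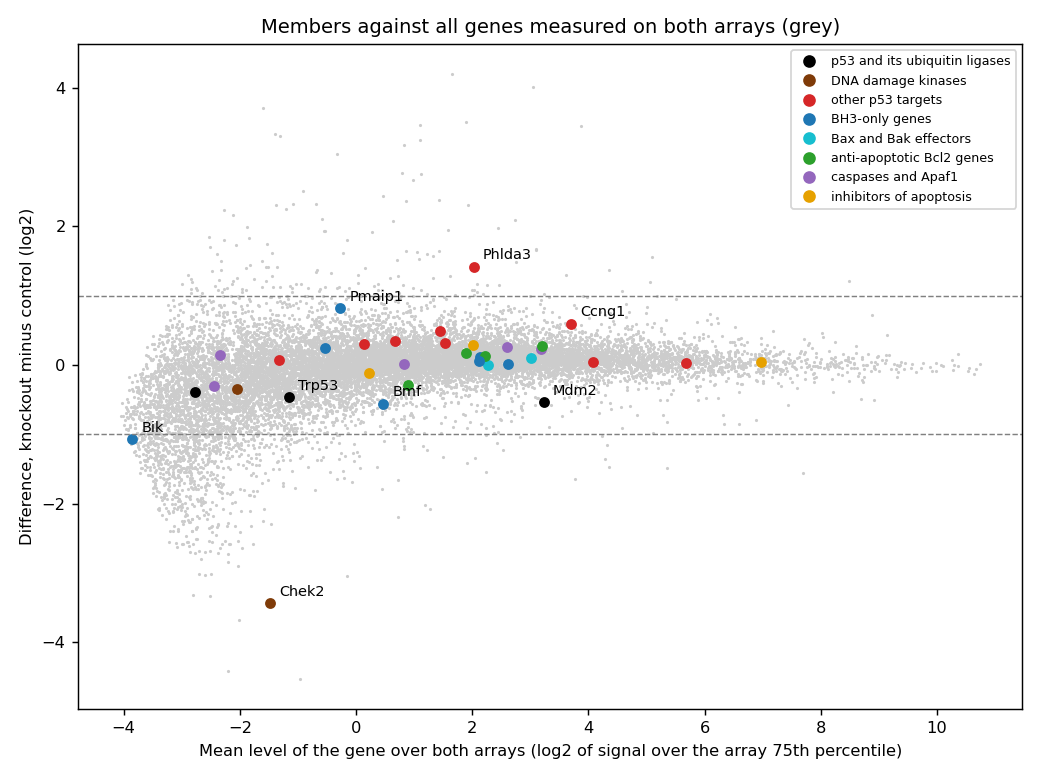
Difference between knockout and control (log2, vertical axis) against the mean level of a gene on both arrays (log2 of signal over the 75th percentile of the array, horizontal axis). Grey dots are the 14254 measured genes, coloured points are the 35 members, and dashed lines mark 2-fold. The grey cloud bends down at low levels, where Bik lies, and Chek2 and Phlda3 lie outside it at -3.43 and 1.42.

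Probe number limited the detail within the list. Of the 35 measured members, 28 were read by 1 measured probe and 7 by 2. In 3 of these 7 genes, Trp53inp1, Mdm4 and Aen, the probes disagreed in sign. A gap of over 0.5 between probes was seen in 3 genes, Trp53inp1, Mdm4 and Atm, and the gaps of the rest were at most 0.22. For each gene with a gap over 0.5 the dimmer probe gave the lower value.

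The direction of a difference depended on how the arrays were scaled. Scaling by array medians raised all genes by 1.08 on the log2 scale, and a 75th percentile over measured probes alone shifted them by -0.13, so differences were also taken relative to the median of all measured genes under 6 scalings. Of these 6, the 3 that divide an array by a single number give the same relative values. Relative to that median, 14 of 35 members lay above 0 under all 6 scalings and 6 lay below 0, while 15 changed sign. Above 0 throughout were 7 of the 9 measured p53 targets, all but Perp and Aen. The lowest relative values of Btg2, Tnfrsf10b and Trp53inp1 were 0.02, 0.05 and 0.06, each below the spot SD of the gene. The 7 others above 0 throughout were Pmaip1, Bcl2l1, Mcl1, Casp2, Casp9, Apaf1 and Xiap. Of these, Apaf1, Casp2, Casp9 and Xiap fell as low as 0.02, 0.05, 0.08 and 0.10, also below their spot SDs. Below 0 throughout were Trp53, Mdm2, Chek2, Bmf, Bcl2 and Birc2, where Birc2 came as near to 0 as -0.08, within its spot SD of 0.12. Relative values of Chek2 ran from -3.44 to -2.13, those of Phlda3 from 1.26 to 1.41, those of Pmaip1 from 0.69 to 0.82 and those of Ccng1 from 0.43 to 0.69. Mdm2 ran from -0.70 to -0.54 and Trp53 from -0.47 to -0.33. Bik ran from -1.07 to 0.35, Mdm4 from -0.40 to 0.53 and Atm from -0.36 to 0.16, so that these 3 dim genes have no settled direction. Relative medians of the p53 targets ran from 0.18 to 0.31, and those of the Bcl2 family from -0.07 to 0.10. Over all measured genes 146 passed 2-fold upward and 835 downward. Array medians gave 8724 and 101, quantile normalization 774 and 233, loess 405 and 290, and normexp correction 72 and 100.

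**Figure D4:**
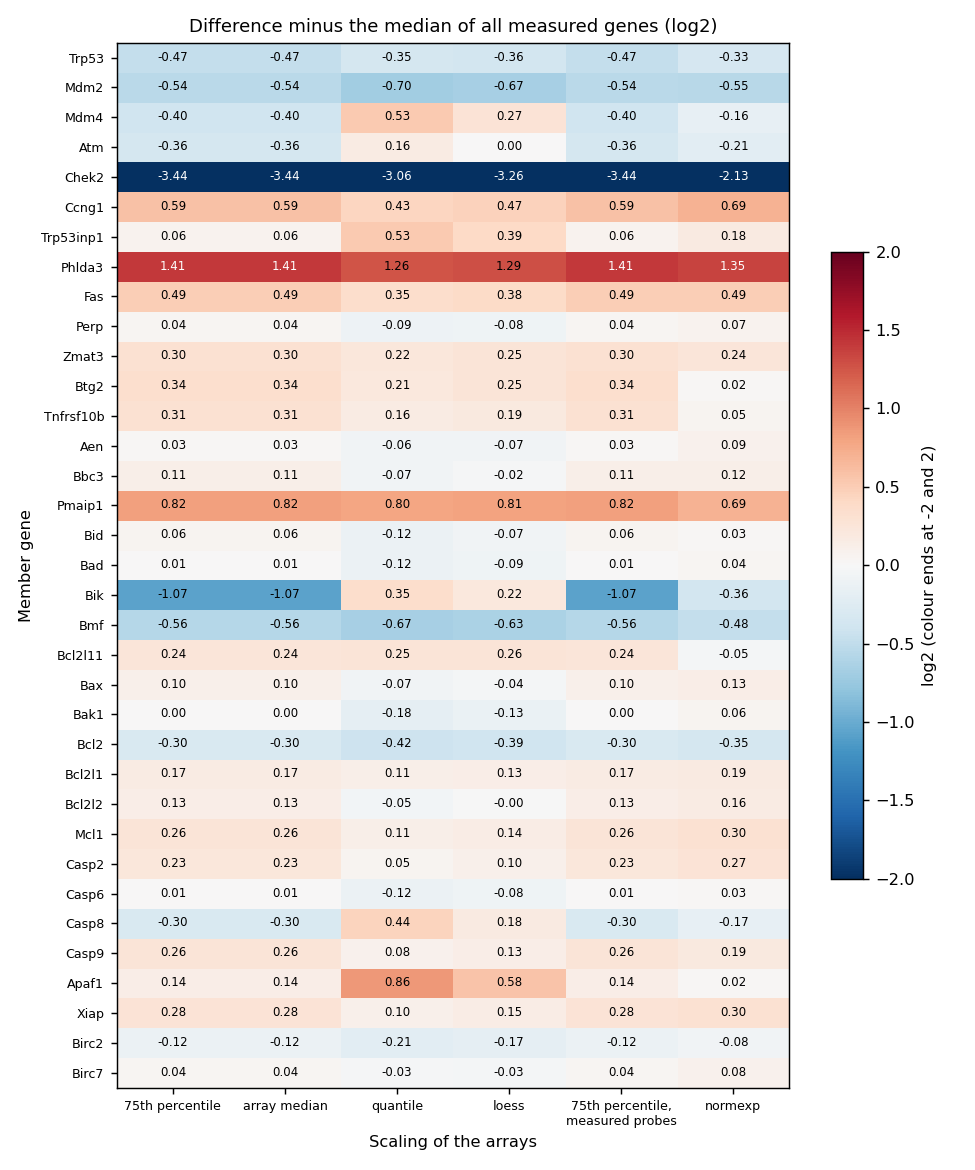
Difference of each of the 35 measured members minus the median difference of all measured genes (log2, printed in each cell), for 6 scalings of the arrays in columns. Red is higher and blue lower on the knockout array, with the colour ending at -2 and 2. Chek2 is blue and Phlda3 red in each column, whereas Bik, Mdm4, Casp8 and Atm differ in sign between columns.

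Further genes of the pathway were listed beside the members, with the earlier results of these arrays known. Of 29 further p53 targets 26 were measured, with 23 above 0 and a median of 0.19, and 2 passed 2-fold upward while 0 passed it downward. Over all measured genes 50.9% lay above 0, 1.02% passed 2-fold upward and 5.86% downward. Relative to the median of all genes the median of the 26 ran from 0.14 to 0.18 over the 6 scalings, with 18 above 0 under quantile normalization and 19 under loess. Cdkn1a, which encodes the cell cycle inhibitor p21, was read by 2 probes that differed. The probe printed 9 times read from 95.2 to 116 in the control (median 105) and from 639.7 to 746 in the knockout (median 696), with no overlap and a mean difference of 2.72 (SD 0.13 over spots). The other, on a single spot, read 35.1 and 37.1, a difference of 0.09. Gdf15, a stress cytokine, read 41.8 and 147 on 1 spot, a difference of 1.83 from a dim control signal. Relative to the median of all genes Gdf15 ran from 1.03 to 2.47 over the 6 scalings. Against that direction Sfn, an epithelial 14-3-3 protein gene, read 169 and 89.6, a difference of -0.91. The lipid transfer protein gene Pltp lay at -0.69 and the repair polymerase gene Polk at -0.65, both dim.

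Of 25 further apoptosis genes 21 were measured, with 11 above 0 and a median of 0.01, and 0 passed 2-fold in either direction. For this list and the next, 50.9% of all measured genes lay above 0, and 67.8% of those at or above the median signal. Of all measured genes 1.02% passed 2-fold upward and 5.86% downward. Birc5, which encodes survivin and acts in mitosis, was higher with each of its 3 probes, 0.34, 0.74 and 0.47. Birc6, a large inhibitor of apoptosis gene, read 262 and 337, a difference of 0.38. Of 20 further DNA damage response genes 18 were measured, with 14 above 0 and a median of 0.23, and 1 passed 2-fold upward while 0 passed it downward. Relative to the median of all genes, 12 of the 18 lay above 0 under quantile normalization and 13 under loess. Mdc1, a scaffold at DNA breaks, was 2.10-fold higher, from 125 to 261. Relative to the median of all genes Mdc1 ran from 0.80 to 1.12, and 0 genes of its list passed 2-fold upward after normexp correction or with the 75th percentile over measured probes. Wee1, a kinase that delays mitosis, read 141 and 249, a difference of 0.83, and Cdc25c, the phosphatase that opposes it, read 95.0 and 137, a difference of 0.54. All 13 genes of the p53 family and its regulators were measured, with 7 above 0 (50.9% of all measured genes) and a median of 0.13. Of the 13, 0 passed 2-fold in either direction, against 1 upward under quantile normalization and under loess. Trp53bp2, a p53 cofactor, lay at 0.55 at dim signals of 25.9 and 37.5. Rpl5, a ribosomal protein that can bind Mdm2, read 24995 and 17817, a difference of -0.47, and the deacetylase gene Sirt1 lay at 0.41.

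**Figure D5:**
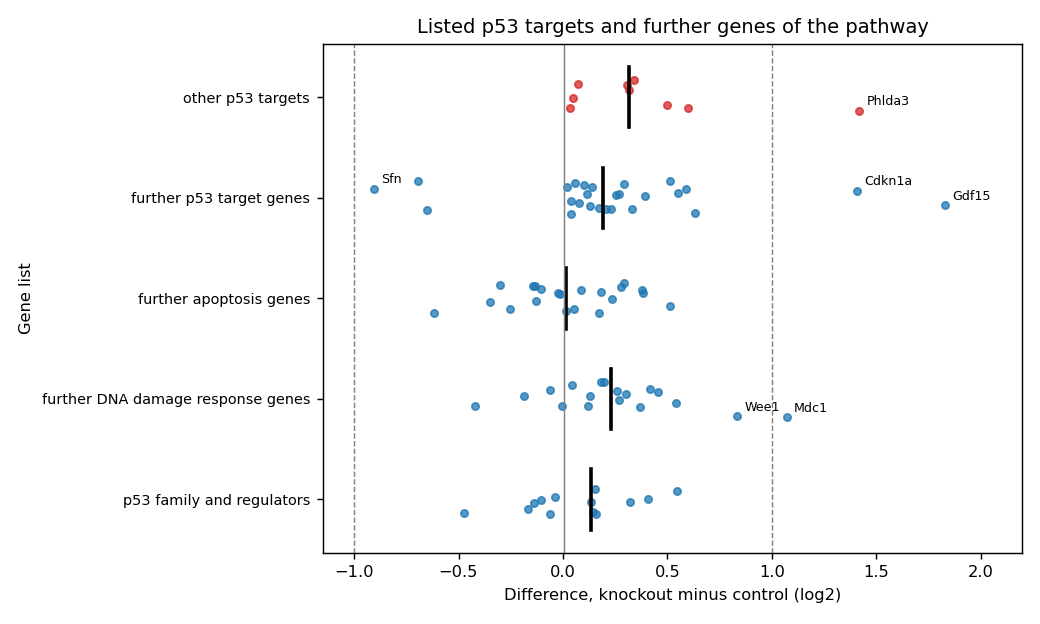
Difference between knockout and control (log2, horizontal axis) for the listed p53 targets (red, 9 genes) and for 4 further lists of the pathway (blue), with a black bar at the median of each list and dashed lines at 2-fold. The median bars stand at 0.32, 0.19, 0.01, 0.23 and 0.13 from top to bottom, and Phlda3, Cdkn1a, Gdf15 and Mdc1 lie to the right of 1.

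Markers of other cell types were also read, and their part in the differences of the p53 targets was not tested. Over all measured genes 50.9% lay above 0, with 67.8% at or above the median signal and 34% below it. Retina markers lay above 0 in 10 of 11 genes with a probe, all of them measured. Their summed level was 25.9 in the control and 35.7 in the knockout, in units of the 75th percentile. Mesenchyme markers lay above 0 in 4 of 4 measured of 7 listed, with sums of 1.21 and 1.83. The mesenchyme markers Dcn and Lum were above background on the knockout array only. Vessel endothelium lay above 0 in 2 of 8 (sums of 14.9 and 14.5), macrophages in 1 of 7 (6.30 and 6.03) and red blood cells in 0 of 3 (38.3 and 32.2). All measured macrophage markers and most vessel markers lay below the median signal, where low counts above 0 are common. Lens fibre markers summed to 8734 and 8670.4, and lens epithelium markers to 357 and 278. Most of the epithelium sums is Clu, with processed signals of 95481 and 72394, so they follow that gene. Of the epithelium markers 2 of 7 lay above 0.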

How the data were processed

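Total RNA of 1 control and 1 knockout lens sample was read on Agilent 1-colour arrays of the same slide, and the position on the slide and the genotype cannot be told apart. The authors deposited spot intensities on a linear scale, extracted with Agilent Feature Extraction 10.7.3.1 from a probe layout annotated to mm9, and other marks of 0 or 1 per spot for background, outliers and saturation, per the file headers. Scaling between arrays is not given in the sources used here.

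From these intensities, control spots and spots with an outlier mark were left out, the processed signals were divided by the 75th percentile of their array and put on the log2 scale, and repeat spots were averaged. A probe needed a well-above-background mark on over 50% of its spots in each sample, and a gene is the mean over its measured probes. Unversioned RefSeq accessions were matched to a GRCm38.p6 table, which named 27225 of 55655 probes. Spot SDs come from 281 probes in 5 classes of brightness, using the class of the dimmer array. They were divided by the square root of the number of spots of a probe. The steps were tested on simulated data. Alternatives were 4 other scalings (loess with statsmodels 0.14.6), normexp in limma 3.58.1 with an offset of 50 on median spot signals (the files used here hold no mean signal), the brightest probe, other filters, outliers kept and a median over spots.

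The members and lists were chosen with earlier results of these data known. Beyond the members, the rule names Foxp1, Cdkn1a, Gdf15 and up to 3 genes with the largest difference of each further list, and some genes that it takes are not reported here. Neighbouring genes and unmeasured markers were named after their values were seen.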

Additional observations from a re-analysis of the deposited data

How the results depend on the processing

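Phlda3 stayed at least 2-fold higher and Chek2 at least 2-fold lower under each scaling tried. The count of 1 higher member became 25 under array medians and 3 at a limit of 1.5-fold. The count of 2 lower members became 1 under array medians, quantile normalization, loess and normexp, where Bik no longer passed. With no filter on background it became 4 of 38, where Chek1 and Birc3 entered, against 4466 of all 20655 genes. Over probes at or above the median signal it became 0, where Chek2 and Bik were not included. The 25 members above 0 became 15 with the 75th percentile over measured probes, and the median of 0.07 became 1.15 under array medians. Bik turned to 0.41 under quantile normalization and 0.26 under loess. Its 0.015 under array medians is the shift of all genes by 1.08, relative to which it stayed at -1.07. Single members changed sign in 12 of 35 cases under quantile normalization, 10 under loess, 2 with the brightest probe, 1 under normexp and 1 with no filter. The 10 sign changes with the 75th percentile over measured probes and the 9 under array medians come from a constant added to all genes, so they say nothing about the members. None of the 35 changed sign with outlier spots kept or with a median over spots (0 each). No paired analysis was possible because each group holds 1 array. Signals below about 81.0 on the control array limit what can be said of Bik, Mdm4, Casp8, Apaf1, Birc3, Chek1 and Plk2. They also limit the dimmer probes of Atm and Trp53inp1. The same limit holds for Gdf15, Pltp, Polk and Trp53bp2 among the further genes, for the dimmer Cdkn1a probe and for the dimmest Birc5 probe.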

Other observations

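Genes beside some members in the annotation read differently from them. Acta2, smooth muscle actin, is the neighbour of Fas and was 4.27-fold higher on the knockout array, against 0.50 on the log2 scale for Fas. Acoxl, an acyl-coenzyme A oxidase relative that overlaps Bcl2l11, lay at -1.45, against 0.25 for Bcl2l11. Acoxl is in the dimmest decile of signal, where the median difference was -0.61 and 30.2% of genes were at least 2-fold lower. Bub1b, a spindle checkpoint gene beside Bmf, lay at 0.46, against -0.56 for Bmf. Wrap53, the neighbour of Trp53, lay at 0.14, against -0.47 for Trp53. These neighbours were chosen after their values were seen.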
